A study of Homo sapiens with 6 samples.

Results

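The BCL2-family genes that decide whether a mitochondrion is opened during apoptosis were followed in T47D cells exposed to GDC-0941, an inhibitor of PI3 kinases. The 8 genes were 5 survival genes (BCL2, BCL2L1, BCL2L2, MCL1 and BCL2A1) and 3 effector genes (BAX, BAK1 and BOK), of 19775 genes measured. They were chosen by name, with earlier results of these data known. Every probe set annotated to 1 of them and to no other gene was used, which gave 22 probe sets of 54613. The survival genes had 17 of these (BCL2 4, BCL2L1 4, BCL2L2 2, MCL1 6, BCL2A1 1) and the effectors 5 (BAX 2, BAK1 1, BOK 2).

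The line T47D derives from a human breast carcinoma of luminal type and carries the oestrogen receptor, and GDC-0941 blocks the class I PI3 kinases, which activate the kinase AKT below growth factor receptors. Total RNA came from 3 samples given GDC-0941 for 6 hours, with a labelled concentration of 1 mM, and from 3 control samples whose agent is labelled none. All 6 were grown in DMEM with 10% fetal bovine serum, so growth factors of the serum were present in both groups. The unit of the dose is uncertain, since the label may stand for micromolar. Whether the controls received the solvent, and whether the replicates were separate cultures, is not stated, and the p-values therefore reflect spread among these arrays that could be technical. Both groups come from 1 cell line at 1 dose and 1 time.

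Proteins of the BCL2 family meet on the outer mitochondrial membrane. BAX and BAK1 open pores in it when active, which lets cytochrome c out to trigger caspases, and BOK is a relative that can act without them. BCL2, BCL-xL (from BCL2L1), BCL-w (from BCL2L2), MCL1 and BFL-1 (from BCL2A1) hold the effectors and the activating BH3-only proteins in check. In breast epithelium BCL2 is a target of the oestrogen receptor, and PI3 kinase signalling acts on the family through phosphorylation of BAD, through FOXO factors that drive BH3-only genes and through the translation and stability of MCL1, much of which an RNA measurement does not see.

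Among the 8 genes, BOK and BAK1 fell and BCL2L2 rose after GDC-0941. The fall was 1.58-fold for BOK and 1.26-fold for BAK1, and the rise was 1.32-fold for BCL2L2. No probe set of BCL2, BCL2L1, MCL1, BCL2A1 or BAX passed the test, which was limma's moderated test over all 54613 probe sets with Benjamini-Hochberg adjustment, called at an adjusted p under 0.05. By probe set, 3 of the 22 were called (13.6%), 1 higher and 2 lower, beside 18.8% of all probe sets (8.88% higher and 9.89% lower). By the brightest probe set of each gene, 3 of 8 were called (37.5%), beside 24.0% of all genes (10.5% higher and 13.6% lower). These 8 probe sets had a median level of 9.24, against 7.36 over all probe sets. Of the 27306 probe sets above the median level, fitted alone, 10711 were called. The share called was thus below that of all probe sets when counted by probe set and above that of all genes when counted by gene, with 3 calls in either count. The 24.0% is not matched for level, and the part of level in the 37.5% was not tested. The median log2 difference of the 22 probe sets, -0.02, lay beside a median of -0.01 over all probe sets. Of all calls 47.3% were higher, and 89.9% when each array was centred on its 18 hybridisation control probe sets (bacterial and phage transcripts added before hybridisation), which moved the median of all probe sets to 0.16. In RNA from bulk cultures, less RNA in every cell and a change in only some of the cells cannot be told apart.

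**Figure D1:**
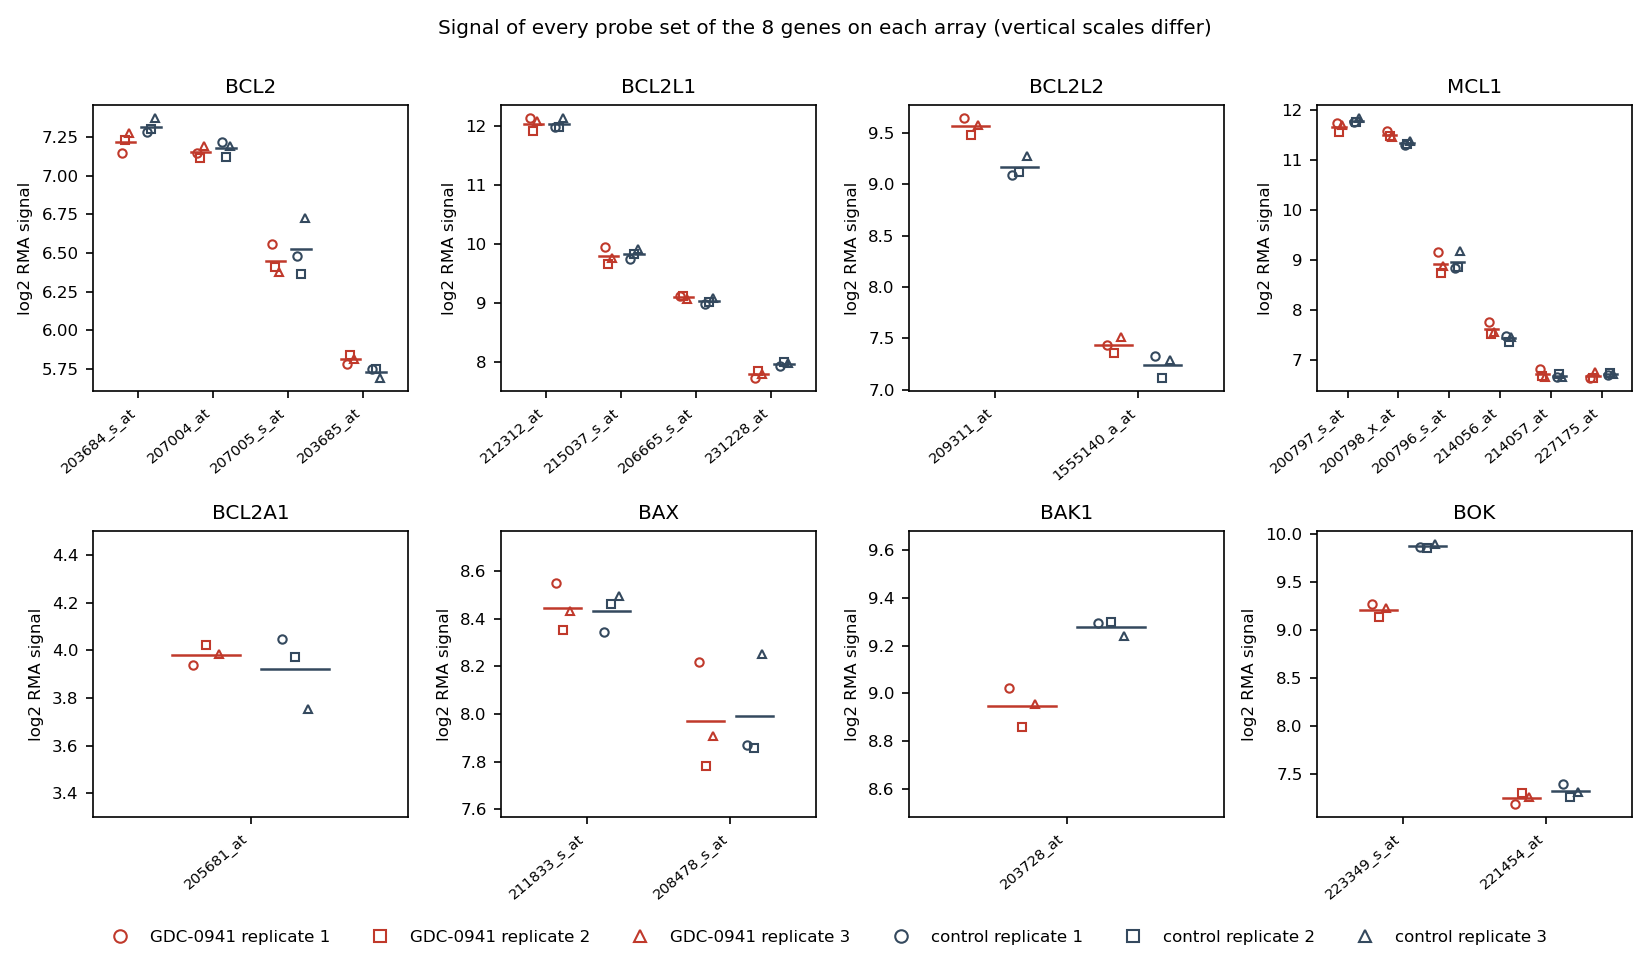
Log2 RMA signal of every probe set of the 8 genes, 1 panel per gene, with 1 point per array and GDC-0941 to the left of control. The arrays of BOK 223349_s_at lie at 9.13 to 9.27 with GDC-0941 and at 9.86 to 9.90 in control, those of BAK1 at 8.86 to 9.02 with GDC-0941 and 9.24 to 9.30 in control, and those of BCL2L2 209311_at at 9.48 to 9.64 with GDC-0941 and 9.09 to 9.28 in control.

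BOK, the effector that can act without BAX and BAK1, had log2 signals of 9.27, 9.13 and 9.23 in the GDC-0941 arrays and 9.87, 9.86 and 9.90 in the control arrays at probe set 223349_s_at. Every GDC-0941 array lay below every control array, by more than the spread within either group. The mean was 9.21 ± 0.07 with GDC-0941 and 9.88 ± 0.02 in control (SD, n = 3 each), and the log2 difference was -0.66 ± 0.06 (SE, 95% interval -0.80 to -0.53) or a fall of 1.58-fold (1.44 to 1.74) with a limma adjusted p of 3.592e-05. Of all probe sets, 0.613% had a larger fall. The second BOK probe set, 221454_at, read 7.18, 7.30 and 7.26 with GDC-0941 and 7.39, 7.26 and 7.31 in control. Its groups overlapped, and its log2 difference of -0.07 ± 0.06 was not called (limma adjusted p = 0.5041). The 2 BOK probe sets thus differed in what they showed, and only 1 carried the call.

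BAK1, a pore former that sits in the mitochondrial membrane before any death signal, had 1 probe set. It read 9.02, 8.86 and 8.95 with GDC-0941 and 9.29, 9.30 and 9.24 in control, with no overlap. The mean was 8.95 ± 0.08 with GDC-0941 and 9.28 ± 0.03 in control (SD, n = 3 each). The log2 difference of -0.33 ± 0.06 (SE, 95% interval -0.47 to -0.19) was a fall of 1.26-fold (1.14 to 1.39) with a limma adjusted p of 0.003409. With the arrays centred on their hybridisation controls, the BAK1 difference was -0.16 and no longer called (limma adjusted p = 0.2175). The mean log2 signal of those controls was 10.72, 10.65 and 10.86 in the GDC-0941 arrays and 10.94, 10.90 and 10.90 in the control arrays, lower in every GDC-0941 array. Centring subtracts this value from all probe sets of an array, and every member probe set then had the same SE, 0.1042. The p-values under this centring thus carry a shared array offset and are not separate tests of each gene.

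BAX, the pore former that moves to mitochondria when activated, showed no called change. Probe set 211833_s_at read 8.55, 8.35 and 8.43 with GDC-0941 and 8.34, 8.46 and 8.49 in control, and its log2 difference was 0.01 ± 0.07 (SE, 95% interval -0.14 to 0.17, limma adjusted p = 0.9435). Probe set 208478_s_at read 8.22, 7.78 and 7.91 with GDC-0941 and 7.87, 7.86 and 8.25 in control, and its difference was -0.02 ± 0.12 (SE, 95% interval -0.29 to 0.25). GDC-0941 array 1 and control array 3 stood high together here, and so they did at MCL1 200796_s_at. Without both arrays the called counts of the 22 probe sets stayed at 1 higher and 2 lower.

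The promoters of the 3 effectors are shown because BOK and BAK1 fell and BAX was not called. Each is the 250 bases before and the 50 bases after an annotated start, 5′ to 3′ on the gene's strand, from RefSeq on GRCh38.p14. Capitals mark CACGTG (an E-box), searched on both strands with TGTTTAC (a FOXO-type element) and TGACGTCA (a CRE). BAX lies at chr19:48954625-48954924 on the plus strand, BAK1 at chr6:33580227-33580526 on the minus strand and BOK at chr2:241558495-241558794 on the plus strand.
BAX: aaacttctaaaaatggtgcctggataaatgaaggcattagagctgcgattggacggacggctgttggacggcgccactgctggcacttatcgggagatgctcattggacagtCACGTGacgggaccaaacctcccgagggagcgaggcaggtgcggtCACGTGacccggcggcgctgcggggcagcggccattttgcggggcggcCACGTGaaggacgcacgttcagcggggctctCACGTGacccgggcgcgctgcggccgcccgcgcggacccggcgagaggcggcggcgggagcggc
BAK1: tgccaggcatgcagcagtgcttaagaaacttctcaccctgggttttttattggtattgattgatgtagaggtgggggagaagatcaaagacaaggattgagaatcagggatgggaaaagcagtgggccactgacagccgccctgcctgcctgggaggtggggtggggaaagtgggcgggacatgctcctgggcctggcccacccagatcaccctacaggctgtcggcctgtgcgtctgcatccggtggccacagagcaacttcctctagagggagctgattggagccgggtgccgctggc
BOK: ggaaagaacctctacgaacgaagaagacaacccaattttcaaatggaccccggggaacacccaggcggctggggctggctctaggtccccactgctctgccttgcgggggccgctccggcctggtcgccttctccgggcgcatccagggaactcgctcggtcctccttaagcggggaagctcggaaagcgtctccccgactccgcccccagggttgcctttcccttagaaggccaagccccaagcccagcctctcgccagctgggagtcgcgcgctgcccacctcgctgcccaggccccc

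The BAX window held 4 copies of CACGTG, whose first bases lay 138, 93, 45 and 14 bases before the annotated start. Of 35116 promoters of that length, 7.26% held the motif and 5 held 4 or more. Neither BAK1 nor BOK held any of the 3 motifs, and TGTTTAC and TGACGTCA were in no member's window (6 of the 8 genes had entries), beside 3.42% and 1.85% of all promoters. BCL2L2 and MCL1 had no entry and were not searched. GC content was 67.3% for BAX, 58.7% for BAK1 and 66.7% for BOK, with a median of 58.7% over all promoters. These are letter matches only. No binding was measured.

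Of the survival genes, BCL2L2, which encodes BCL-w, was the one with a called probe set. Probe set 209311_at read 9.64, 9.48 and 9.57 with GDC-0941 and 9.09, 9.12 and 9.28 in control, and the groups did not overlap. The mean was 9.57 ± 0.08 with GDC-0941 and 9.16 ± 0.10 in control (SD, n = 3 each). The log2 difference of 0.40 ± 0.07 (SE, 95% interval 0.24 to 0.56) was a rise of 1.32-fold with a limma adjusted p of 0.002254. The second, 1555140_a_at, read 7.43, 7.36 and 7.51 with GDC-0941 and 7.33, 7.11 and 7.29 in control. It lay in the same direction without overlap, at 0.19 ± 0.07 (SE), and was not called (limma adjusted p = 0.1063).

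MCL1 encodes a short-lived survival protein whose level is set largely by translation and by ubiquitin-dependent decay. Its 2 brightest probe sets had differences of opposite sign. At 200797_s_at the arrays read 11.74, 11.55 and 11.70 with GDC-0941 and 11.76, 11.76 and 11.83 in control, all GDC-0941 arrays below all controls, with a difference of -0.12 ± 0.07 (SE, 95% interval -0.27 to 0.03). At 200798_x_at they read 11.57, 11.48 and 11.46 with GDC-0941 and 11.29, 11.32 and 11.37 in control, all GDC-0941 arrays above, with a difference of 0.17 ± 0.06 (SE, 95% interval 0.04 to 0.31). Neither was called (limma adjusted p = 0.2662 and 0.07615). Centring on the hybridisation controls put 200797_s_at at 0.05 and 200798_x_at at 0.34, where 200798_x_at was called (limma adjusted p = 0.00696). That call carries the offset shared by all probe sets of an array. The suffix _x marks probes that may match other sequences, and their part in the result was not tested. Of the other 4, 214056_at read 7.75, 7.52 and 7.56 with GDC-0941 and 7.47, 7.35 and 7.46 in control, above and not called at 0.18 ± 0.07 (SE), and the remaining 3 overlapped at -0.04 to 0.05.

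**Figure D2:**
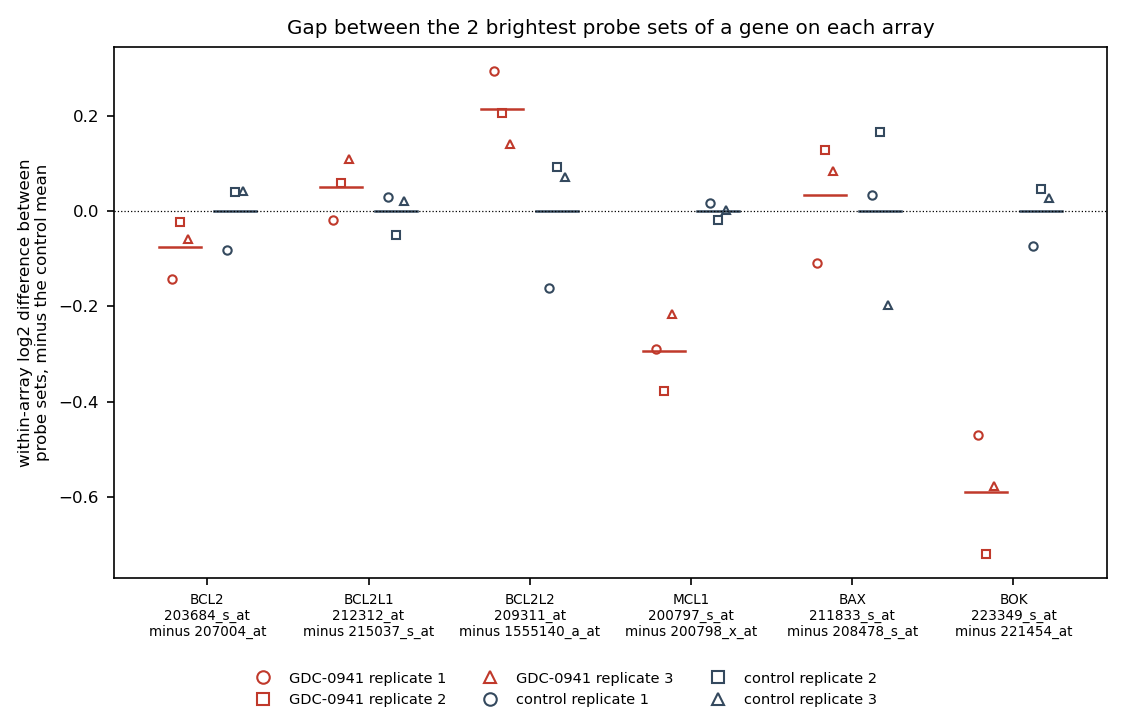
Difference between the 2 brightest probe sets of 6 genes within each array, in log2 units relative to the control mean, with GDC-0941 left of control. For MCL1 the GDC-0941 arrays lie below the controls, for BOK too, and for BCL2L2 above them.

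The gap between the 2 brightest probe sets of a gene was compared in 6 genes, because adding a constant to an array's log2 values leaves it unchanged (a scaling that depends on intensity, as in RMA, can move it). For MCL1 it was 0.17, 0.08 and 0.24 in the GDC-0941 arrays and 0.47, 0.44 and 0.46 in control, a difference of -0.29. For BOK it was 2.09, 1.84 and 1.98 with GDC-0941 and 2.48, 2.60 and 2.58 in control, a difference of -0.59, and for BCL2L2 the difference was 0.21. In these 3 genes no array of one group lay within the other, and the exact two-sided permutation p was 0.1, the smallest 3 against 3 arrays can give (0.2 adjusted over the 6). The gap of BCL2 differed by -0.08, that of BCL2L1 by 0.05 and that of BAX by 0.03, with overlapping arrays. The gap thus separated the arrays of the 2 groups in MCL1, BOK and BCL2L2. The permutation test could not give any gap a p under 0.1, so it cannot decide on these differences. How often the gap of any other gene separates the groups was not counted, and 34.3% of all single probe sets did so. For BOK and BCL2L2 the gap contains the called probe set, so it is not a separate result.

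BCL2, the founding survival gene, was not called at any of its 4 probe sets. At 203684_s_at the arrays read 7.15, 7.23 and 7.27 with GDC-0941 and 7.28, 7.30 and 7.37 in control, without overlap, with a difference of -0.10 ± 0.06 (SE, 95% interval -0.24 to 0.04, limma adjusted p = 0.3345). At 203685_at they read 5.78, 5.84 and 5.82 with GDC-0941 and 5.75, 5.75 and 5.69 in control, without overlap in the other direction, with a difference of 0.08 ± 0.06 (SE). Probe sets 207004_at and 207005_s_at overlapped, at -0.02 and -0.08.

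BCL2L1, the gene of BCL-xL and the pro-death splice form BCL-xS, had 4 probe sets and none called. At 212312_at the arrays read 12.13, 11.91 and 12.07 with GDC-0941 and 11.97, 11.98 and 12.13 in control, with a difference of 0.01 ± 0.07 (SE, 95% interval -0.15 to 0.17). The pair 215037_s_at and 206665_s_at stood at -0.04 and 0.07. At 231228_at the arrays read 7.73, 7.84 and 7.80 with GDC-0941 and 7.93, 7.999 and 7.99 in control, all GDC-0941 arrays below, with a difference of -0.18 ± 0.06 (SE) and a limma adjusted p of 0.06186. BCL2A1, the gene of BFL-1, an NF-kappaB target of blood cells, read 3.94, 4.02 and 3.98 with GDC-0941 and 4.05, 3.97 and 3.75 in control. These values lie near the bottom of the table, whose lowest value is 3.00, and the deposited values carry no detection call, so the difference of 0.06 ± 0.08 (SE) says little about the gene.

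**Figure D3:**
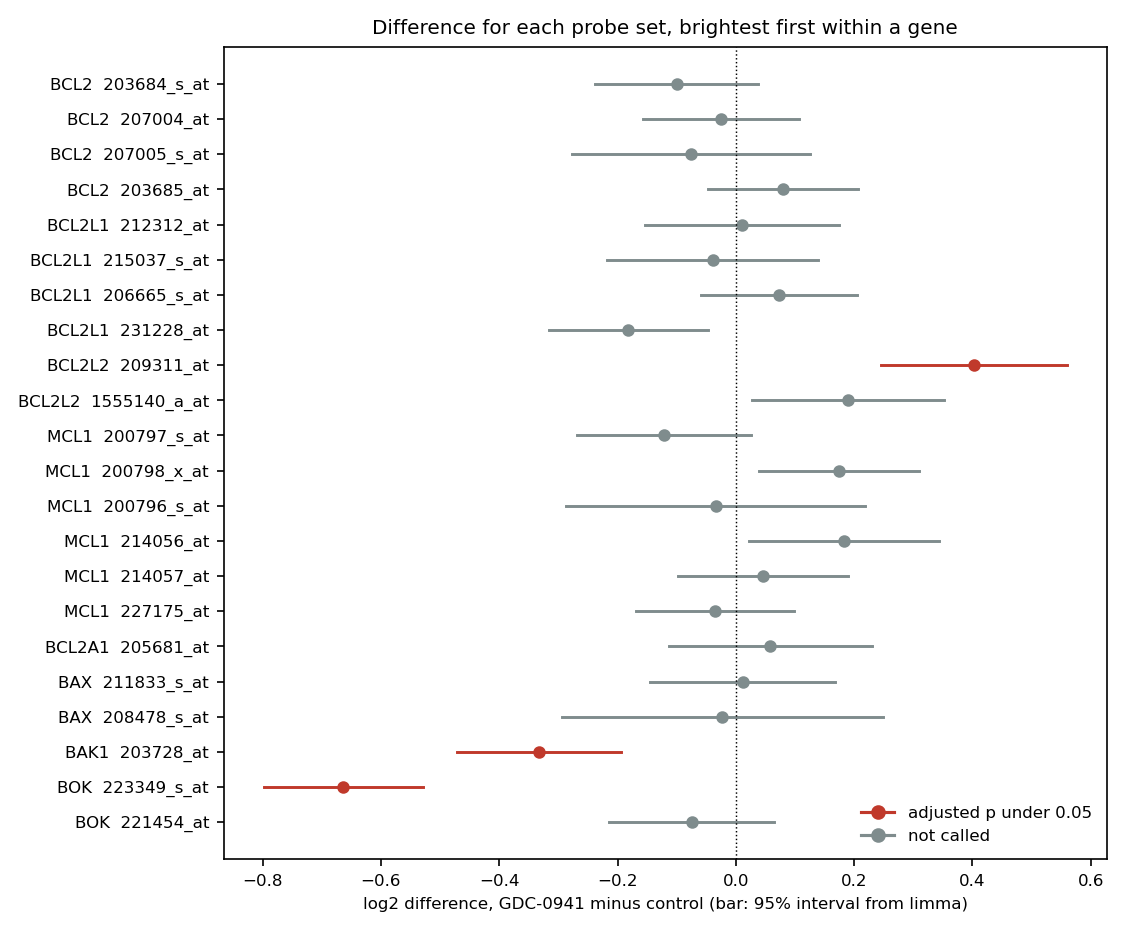
Log2 difference, GDC-0941 minus control, of each of the 22 probe sets with its 95% limma interval, grouped by gene. The intervals of BOK 223349_s_at and BAK1 203728_at lie wholly below 0 and that of BCL2L2 209311_at wholly above it, and these 3 are the called probe sets.

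The 19 uncalled probe sets had differences of -0.18 to 0.19. Their 95% intervals in the main fit all lay between -0.32 and 0.352. A fall of more than 1.245-fold or a rise of more than 1.276-fold lay outside each. Each interval covers its own probe set alone and the deposited scaling only. With the arrays centred on their hybridisation controls, the difference of BCL2L2 1555140_a_at was itself 0.36. Of the 19, 4 had an unadjusted p under 0.05. The share of all probe sets at that unadjusted p is not given here, and 18.8% of all were called after adjustment. In 10 of the 22 probe sets (45.5%), 5 above and 5 below, the 2 groups did not overlap, beside 34.3% of all probe sets.

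**Figure D4:**
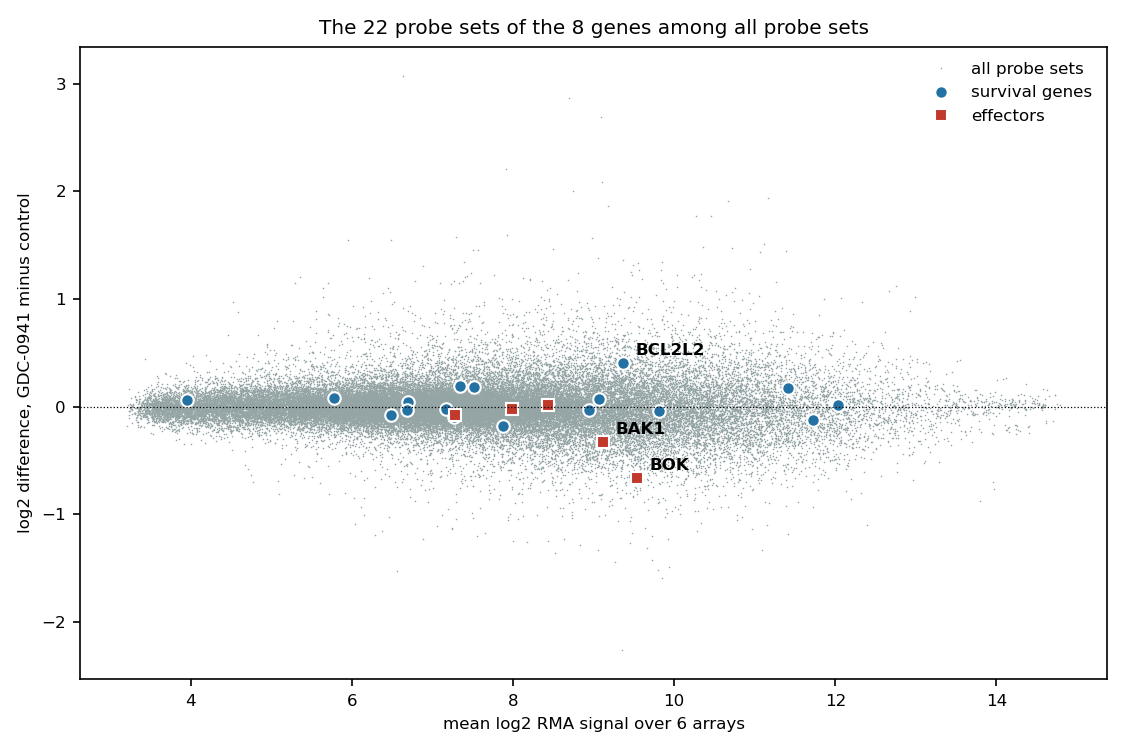
Mean log2 signal over the 6 arrays (x axis) against log2 difference, GDC-0941 minus control (y axis), for all probe sets, with the 22 of the BCL2 family picked out. BOK 223349_s_at, at -0.66, is the member farthest from 0.

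The partners of these genes were read at the brightest probe set of each gene, from 7 lists of 54 genes, 50 of them measured. Of the 50, 8 were called higher, 14 lower and 28 not at all (44%, beside 24.0% of all genes), with a median difference of -0.01. Bright probe sets were called more often: of the 27306 above the median level, fitted alone, 10711 were called, and 48 of the 50 genes lay there. The part of level in the 44% was not tested. Centring on the hybridisation controls gave 16 of the 50 higher and 4 lower. Without GDC-0941 replicate 2 the lower calls numbered 8, and likewise without control replicate 2. The lists were chosen with earlier results of these data known. The BH3-only genes, whose proteins switch the effectors on or block the survival proteins, had 7 of 8 measured, 1 called higher and 3 lower. BID, whose cleaved form activates BAX and BAK1, fell 1.80-fold (log2 difference -0.85 ± 0.06, limma adjusted p = 1.019e-05), with 9.53, 9.36 and 9.42 in the GDC-0941 arrays and 10.26, 10.27 and 10.33 in control. PMAIP1, the NOXA gene, whose product binds MCL1, fell 1.71-fold (-0.77 ± 0.07), and BAD, which AKT keeps inactive by phosphorylation, fell 1.35-fold (-0.43 ± 0.08). BMF rose 1.35-fold (0.43 ± 0.07), and BCL2L11, the BIM gene and a FOXO target, stood at 0.15 and was not called (limma adjusted p = 0.1334).

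The other BCL2 homologues had 5 measured and 1 called, BCL2L12, lower at -0.32 ± 0.08. The binding partners had 15 measured, 5 called higher and 5 lower. ITPR1 rose 1.57-fold (0.65 ± 0.06) and ITPR2 1.51-fold (0.60 ± 0.06), calcium channels of the endoplasmic reticulum that BCL2 and BCL-xL bind. BNIP2 rose 1.37-fold (0.45 ± 0.07). Of 6 genes that set MCL1 ubiquitination, USP9X, a deubiquitinase of MCL1, rose 1.30-fold (0.38 ± 0.06) and the other 5 were not called. Of 5 proteins released through the pore, ENDOG fell 1.57-fold (-0.65 ± 0.07) and CYCS, cytochrome c, fell 1.34-fold (-0.43 ± 0.06). Of 6 measured apoptosome and caspase genes, CASP8 rose (0.35 ± 0.07) and CASP2 fell (-0.36 ± 0.07). Of 6 measured IAP genes, BIRC5 (-0.24 ± 0.07) and BIRC6 (-0.23 ± 0.07) fell. Values in brackets are log2 differences with their SE, from limma with adjusted p under 0.05.

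**Figure D5:**
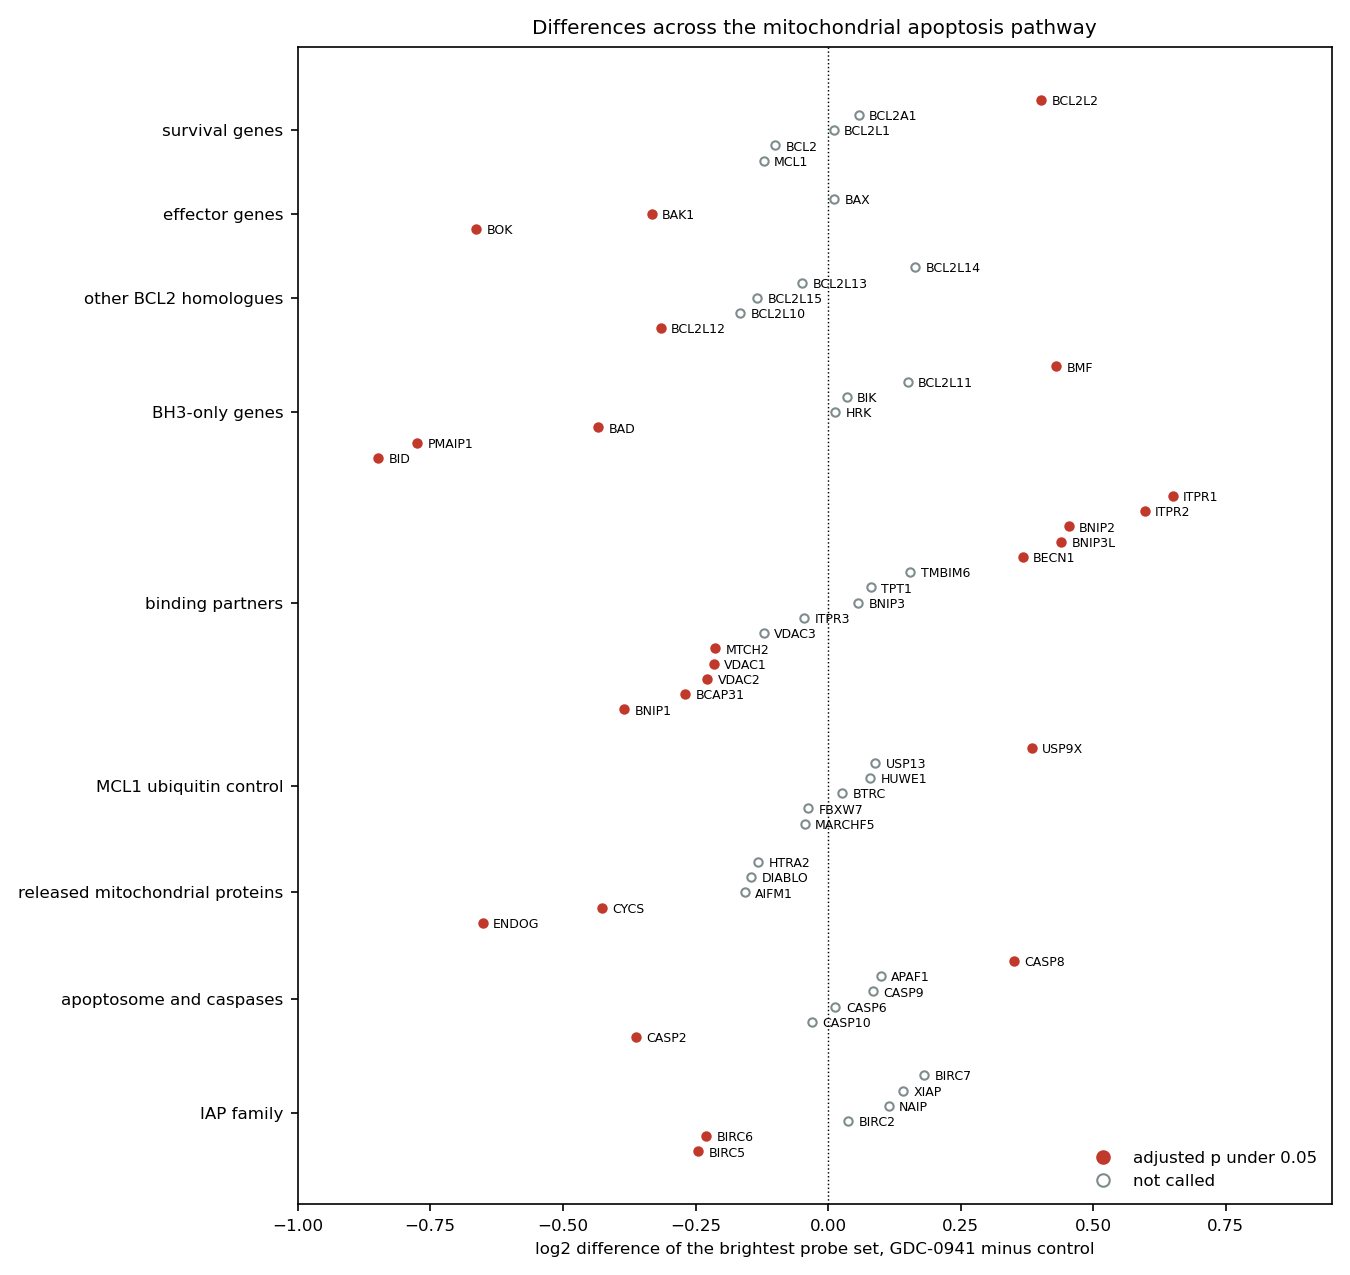
Log2 difference, GDC-0941 minus control, at the brightest probe set of each gene, grouped by list with the 8 genes at the top, and filled points for called genes. BID at -0.85 and PMAIP1 at -0.77 lie lowest, and ITPR1 at 0.65 and ITPR2 at 0.60 highest.

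Genes whose 6 values followed those of the 2 members with the largest rise and fall were found by Pearson correlation over the 6 arrays, a description without a p. With BCL2L2 209311_at these were CAMLG (r = 0.9984, log2 difference 0.45), CTDSPL2 (0.9980, 0.30) and DDX59 (0.9979, 0.30), of 298 genes above 0.98. With BOK 223349_s_at they were CLDN7 (r = 0.9995, log2 difference -0.47), DNAJA1 (0.9994, -1.14) and NEK6 (0.9993, -0.69), of 951 genes above 0.98. The 6 points are 2 groups of arrays, so such values mostly restate the group difference.

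The arrays had medians of 7.34 to 7.38 and correlated at r = 0.9970 to 0.9983 within groups and 0.9917 to 0.9942 between them. All 10 luminal breast markers lay at or above the 97.1 percentile of probe sets by level. Of these, 4 were called higher, ERBB3 (0.97), FOXA1 (0.53) and PGR (0.42) by most, and 2 lower, and their summed log2 level was 131.53 to 131.95 with GDC-0941 and 130.08 to 130.36 in control. Of 19 measured markers of basal, stromal, endothelial and leukocyte cells, COL1A1 rose 0.56, ACTA2 fell by 0.34 (log2 units), and the other 17 were not called, among them CD14 at -0.16 and KDR at -0.06. The summed log2 level of the 4 basal markers was 33.34 to 33.53 with GDC-0941 and 33.86 to 34.03 in control, and that of the 6 stromal markers 49.70 to 50.47 with GDC-0941 and 49.07 to 49.72 in control. Levels above the median of all probe sets, 7.36, were found in 3 of 4 basal, 5 of 6 stromal, 2 of 4 endothelial and 2 of 5 leukocyte markers measured, and the values carry no detection call. The gap between the 3′ and 5′ probe sets of ACTB was 0.41, 0.39 and 0.41 with GDC-0941 and 0.30, 0.29 and 0.21 in control, while that of GAPDH was -0.12, -0.13 and -0.10 with GDC-0941 and -0.14, -0.12 and -0.15 in control. The part of these in the results was not tested.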

How the data were processed

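RNA from T47D cells was hybridised to 6 Affymetrix arrays, 3 per group, and their number limits the precision. The values are log2 signals deposited by the authors, made with RMA per the submitters' processing notes, which corrects background, equalises the arrays' distributions and summarises each probe set, so a shift shared by most transcripts is not visible. The version of RMA and the chip definition: not given in the sources used here. That the scale is log2 follows from the values, 3.00 to 14.81. Of 54675 probe sets, 62 controls were left out and 54613 fitted. Platform annotation named 1 gene for 41091, several for 1801 and none for 11721, and 41037 symbols were matched to RefSeq by Entrez identifier.

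The contrast GDC-0941 minus control was fitted by lmFit and eBayes of limma 3.58.1 (R 4.3.3; two-sided, Benjamini-Hochberg, no filter on level) and checked on simulated data. Gaps between probe sets were compared by exact permutation (scipy 1.17.1). Figures used matplotlib 3.10.9. The text names all members, in each list the 3 called genes with the largest difference (or that with the smallest p), and the 3 genes most like the members with the largest rise and fall. BMF and BCL2L11 were named after their values were seen. Members and lists were chosen with earlier results of these data known. Alternatives were a replicate block, leaving out arrays, other scalings, variance models, weights, filters, features and thresholds. The main fit did not treat the samples as paired. Deviations of same-numbered arrays correlated at -0.344, 0.139 and -0.027, and those of differently numbered arrays at -0.363 to 0.354. With 3 arrays per group these values cannot decide whether same-numbered samples were handled together.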

Additional observations from a re-analysis of the deposited data

How the results depend on the processing

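The calls of BOK 223349_s_at and BCL2L2 209311_at held in all 17 settings. Their own log2 differences were -0.69 to -0.49 and 0.36 to 0.57, and the mean of each gene's probe sets gave -0.37 for BOK and 0.30 for BCL2L2. That of BAK1 held in all but centring on the hybridisation controls (-0.39 to -0.16 over the settings). No called member changed sign. Uncalled ones did: under that centring 9 of the 22 member probe sets turned from below to above 0, among them MCL1 200797_s_at, BCL2 203684_s_at and BOK 221454_at, 3 changed sign with array weights, 3 of 8 with the mean per gene, 3 without both GDC-0941 replicate 1 and control replicate 3, and 1 to 5 in the leave-one-out settings. That centring also moved the median of all probe sets to 0.16, against -0.01, and the share of calls that were higher to 89.9%, against 47.3%. Under it 4 member probe sets were called higher and 1 lower, and 16 pathway genes higher and 4 lower. These calls share the same array offsets and are not separate results. Member probe sets called higher numbered 2 after quantile normalization again, 2 with trend and robust estimation, 4 with array weights and 3 above the median level. Those that entered as higher in 1 or more of these settings were BCL2L2 1555140_a_at, MCL1 200798_x_at and MCL1 214056_at. BCL2L1 231228_at entered as lower (-0.17 after quantile normalization again, -0.18 with array weights and -0.18 above the median level), which brought the lower member calls to 3 in these settings. All probe sets called numbered 10251, against 16901 with array weights, 5488 with 1 probe set per gene, 5186 with the mean per gene and 6104 at an adjusted p under 0.01, where 7 pathway genes were lower. The counts with 1 probe set per gene and with the mean per gene are of 19775 features, not 54613. In the main fit 4754 of the 19775 brightest probe sets were called. The last count differs from the main fit only in its threshold. Leaving out each array gave 1 and 2 member calls throughout, 7624 to 9347 probe sets called and 8 to 14 pathway genes lower (8 without GDC-0941 replicate 2 and 8 without control replicate 2). With the replicate number as a block, 1 and 2 member probe sets, 8514 probe sets and 8 higher and 12 lower pathway genes were called, which changed no member's call and no count by more than 1.5 times. Leaving out both GDC-0941 replicate 1 and control replicate 3, chosen after seeing the data, gave 1, 2, 8633, 9 and 12. The cause of the changes between settings was not tested.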

Other observations

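One further probe set, 201544_x_at, names BCL2L2 together with PABPN1 and their read-through transcript and was left out of the 22. It read 11.82, 11.71 and 11.78 with GDC-0941 and 11.82, 11.86 and 11.91 in control. Its log2 difference of -0.09 ± 0.06 (SE, 95% interval -0.22 to 0.04) was not called and had the opposite sign to both probe sets of BCL2L2 alone.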
